A study of Homo sapiens with 23 samples.

Results

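The classic let-7 targets are 10 genes that textbooks name as repressed by the let-7 microRNA family. They are *HMGA2*, *HMGA1*, *LIN28B*, *IGF2BP1*, *IGF2BP2*, *IGF2BP3*, *ARID3A*, *ARID3B*, *TRIM71* and *NRAS*. They were found by symbol among the 57875 genes listed in each RNAseq sample, and all 10 passed the filter on low counts that left 22842 genes for testing. RNA was measured in HCT116, an established line of human colon cancer cells, with 3 biological replicates for each of 5 lines. The lines were wild type, *AGO1* knockout (genotype *AGO1*-/-), *AGO2* knockout (*AGO2*-/-), *AGO1/2* knockout (*AGO1*-/- and *AGO2*-/-) and *AGO1/2/3* knockout (*AGO1*-/-, *AGO2*-/- and *AGO3*-/-). No line received a treatment, the 4 knockout lines were made by editing the genome of HCT116 cells, and each genotype is represented by 1 line, whose own history cannot be told apart from the genotype. Per the paper, growth was slower than in wild type for the *AGO2* and *AGO1/2* knockout lines and slowest for the *AGO1/2/3* knockout line. The part of growth in the results below was not tested. The question was whether steady state RNA levels of these targets rose as *AGO* genes were lost.

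MicroRNAs of the let-7 family are loaded into Argonaute (AGO) proteins and guide them to complementary sites, mostly in the 3′ untranslated region (3′ UTR) of messenger RNAs, where the AGO protein recruits GW182 (TNRC6) proteins that repress translation and speed decay of the RNA. let-7 is scarce in early embryos and abundant in differentiated tissue, and many of its targets are oncofetal genes that are silent or low in adult tissue and return in tumours. LIN28 proteins block the maturation of let-7 precursors, so that let-7 and *LIN28B* form a double-negative loop.

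Total counts per sample ranged from 27709971 to 45271146, and the *AGO2* knockout samples were the deepest, with 40419152 to 45271146. The *AGO2* knockout files also name another quantification mode, which cannot be told apart from that genotype. Levels are counts scaled for depth by the TMM method and given as CPM, that is, per 1e6 counts of the sample. The epithelial markers *EPCAM* and *KRT8* stood at 213 ± 8.59 CPM and 642 ± 46.4 CPM in wild-type cells (SD, n = 3), whereas *VIL1* and *KRT20* were at or under 1.59 CPM in all samples. *EPCAM* in the triple knockout was at 63.6 ± 1.51 CPM and *CDH1* at 8.57 ± 0.739 CPM, against 97.7 ± 31.9 CPM for *CDH1* in wild-type cells (SD, n = 3). The keratins *KRT8*, *KRT18* and *KRT19* were at 852 ± 126, 617 ± 105 and 355 ± 16.6 CPM in the triple knockout, against 642 ± 46.4, 508 ± 36.7 and 351 ± 81.4 CPM in wild-type cells. In the double knockout *EPCAM* and *CDH1* were at 113 ± 15.0 and 30.9 ± 4.70 CPM. The keratins were at 1086 ± 146, 664 ± 18.7 and 546 ± 97.4 CPM in that line, in the same order. The part of these differences in the results below was not tested. Of the 10 markers of leukocytes, fibroblasts and endothelium, *CD3E*, *CD14*, *LUM* and *CDH5* did not exceed 0.184 CPM in any sample, and *COL1A1* was the highest at 9.58 to 27.5 CPM. In bulk RNA, fewer cells expressing a gene and less RNA per cell cannot be told apart. *AGO1* RNA was lower than in wild-type cells in the 3 lines edited at *AGO1* (log2 fold change -1.89, -1.84 and -2.01), and *AGO3* RNA was lower in *AGO1/2/3* knockout cells (log2 fold change -1.12). *AGO2* RNA was lower in *AGO2* knockout cells (log2 fold change -0.51), did not pass the test in *AGO1/2* knockout cells (-0.26, adjusted p = 0.0924) and was higher in *AGO1/2/3* knockout cells (log2 fold change 0.40). Gene counts include transcripts that carry an edit, and the genotypes are used as labelled.

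The let-7 family is defined by its seed, bases 2 to 8 of the mature strand, which pairs with the target. In the RefSeq table for GRCh38.p14, 11 mature human microRNAs from 14 loci share the seed GAGGUAG. The sequences of let-7a to let-7i and miR-98 are shown because every match below pairs with their common seed or with all but its last base. The seed is printed in capitals, while the rest of the strand differs between them. The sequences read 5′ to 3′.
let-7a-5p: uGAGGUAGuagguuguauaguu
let-7b-5p: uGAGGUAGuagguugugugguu
let-7c-5p: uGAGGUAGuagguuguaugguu
let-7d-5p: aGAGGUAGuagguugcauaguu
let-7e-5p: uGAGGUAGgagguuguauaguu
let-7f-5p: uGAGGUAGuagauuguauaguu
let-7g-5p: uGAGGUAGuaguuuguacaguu
let-7i-5p: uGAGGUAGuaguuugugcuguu
miR-98-5p: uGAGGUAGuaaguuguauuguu

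Matches to the seed were searched on the transcribed strand in the 3′ UTR of the canonical transcript of each gene in GENCODE v44 (GRCh38). An 8mer is CTACCTCA, which pairs with the whole seed and has an A opposite base 1 of the microRNA. A 7mer-m8 is CTACCTC without that A, and a 7mer-A1 is TACCTCA without the first C, and shorter matches within a longer one were not counted again. All 10 targets held at least 1 match, whereas 17.9% of the 14680 protein-coding genes tested did. An 8mer was present in 7 of the 10 targets and in 4.31% of the protein-coding genes tested, and at least 2 8mers in 3 targets and in 0.198% of those genes. These genes became known as targets in part through such matches, and their 3′ UTRs are long, with a median of 3312 bases against 1306 bases for the protein-coding genes tested, so the counts describe the set. A match is not evidence of binding.

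*HMGA2* carried 7 matches, 1 8mer, 3 7mer-m8 and 3 7mer-A1, in a 3′ UTR of 2999 bases on the plus strand of chromosome 12, and they are shown in full because *HMGA2* had the highest log2 fold change of the 10. They lie at chr12:65963299-65963320, chr12:65964384-65964405, chr12:65964534-65964555, chr12:65964896-65964917, chr12:65964946-65964967, chr12:65965799-65965820 and chr12:65965818-65965839 (GRCh38). Capitals mark the bases of the match, and the 8mer begins 21 bases into the UTR.
HMGA2 match 1: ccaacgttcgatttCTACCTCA
HMGA2 match 2: gacctgaataccactTACCTCA
HMGA2 match 3: cccactactcaataCTACCTCt
HMGA2 match 4: taccctccaagtctgTACCTCA
HMGA2 match 5: tgacttgcaaagacCTACCTCc
HMGA2 match 6: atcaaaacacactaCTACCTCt
HMGA2 match 7: tcttaagtcccagtaTACCTCA

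Another annotated *HMGA2* transcript ends in a 3′ UTR of 7421 bases without any match, and gene counts sum over both. The remaining matches shown are the 8mers of *IGF2BP1*, *IGF2BP2* and *ARID3A* and the 7mer-m8 of *NRAS*, which rose in *AGO1/2/3* knockout cells, beside the only matches of *HMGA1* and *IGF2BP3*, which fell. *IGF2BP1* has its 8mers at chr17:49051062-49051083, chr17:49053699-49053720 and chr17:49054353-49054374 on the plus strand, *IGF2BP2* at chr3:185644220-185644241 on the minus strand and *ARID3A* at chr19:974512-974533 on the plus strand. The *NRAS* match lies at chr1:114707901-114707922 on the minus strand, the *HMGA1* match at chr6:34245830-34245851 on the plus strand and the *IGF2BP3* match at chr7:23311795-23311816 on the minus strand (all GRCh38).
IGF2BP1 8mer 1: gtgtgcgaagtaaaCTACCTCA
IGF2BP1 8mer 2: agcagtgctagtaaCTACCTCA
IGF2BP1 8mer 3: tataaatggattaaCTACCTCA
IGF2BP2 8mer: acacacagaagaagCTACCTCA
ARID3A 8mer: ctgcctatctctgtCTACCTCA
NRAS 7mer-m8: agttctcagaataaCTACCTCc
HMGA1 7mer-m8: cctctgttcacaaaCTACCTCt
IGF2BP3 8mer: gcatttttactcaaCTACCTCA

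*TRIM71* had the most matches, 8 in all with 4 8mers, followed by *HMGA2* with 7. *LIN28B*, *IGF2BP1* and *ARID3B* had 5 each, the last without an 8mer. *IGF2BP2* and *ARID3A* had 3, *NRAS* had 2, and *HMGA1* and *IGF2BP3* had 1.

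**Figure D1:**
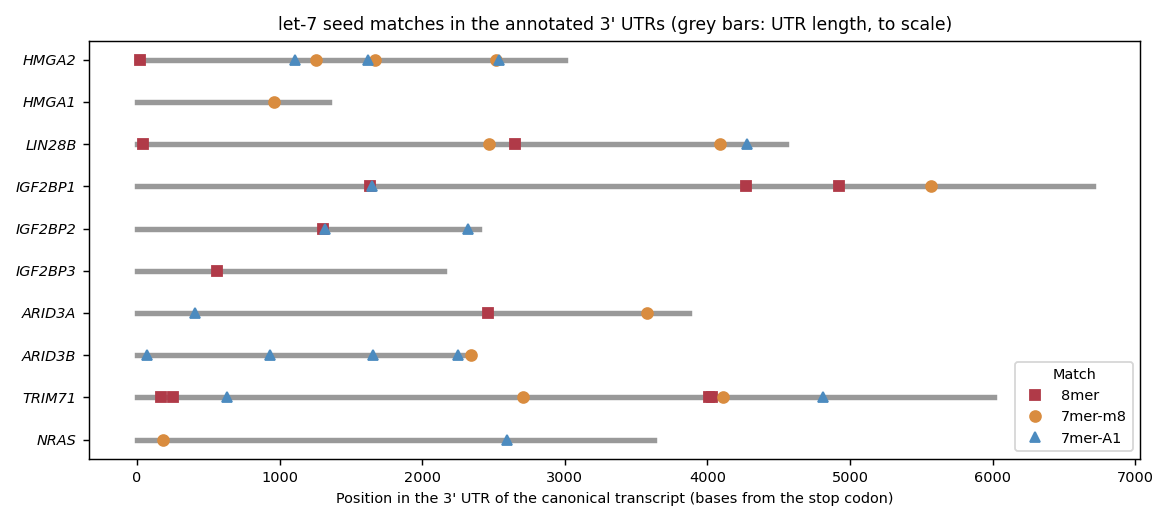
Position of each let-7 seed match (bases from the stop codon, horizontal axis) in the annotated 3′ UTR of each of the 10 targets, with the UTR drawn as a grey bar to scale and the kind of match given by the marker. *TRIM71* carries 8 matches and *HMGA2* 7, while *HMGA1* and *IGF2BP3* carry 1 each.

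In wild-type HCT116 cells the targets covered a wide range of levels. Per kilobase of canonical transcript, *HMGA1* stood highest at 544 ± 150 CPM, then *HMGA2* at 107 ± 9.85, *IGF2BP2* at 54.0 ± 8.34, *IGF2BP3* at 50.6 ± 10.5 and *NRAS* at 29.1 ± 3.96 CPM per kilobase (SD, n = 3). *ARID3A* followed at 3.29 ± 0.669 and *ARID3B* at 3.09 ± 0.971 CPM per kilobase. *IGF2BP2* and *IGF2BP3* did not differ beyond their spread, nor did *ARID3A* and *ARID3B*. The remaining genes were low, *IGF2BP1* at 0.122 ± 0.0379, *LIN28B* at 0.0573 ± 0.0124 and *TRIM71* at 0.025 ± 0.00311 CPM per kilobase. *IGF2BP1* had 24 to 100 counts in a sample, *LIN28B* 2 to 20 and *TRIM71* 4 to 15, where 3 counts were taken as the floor, so that the last 2 were near the limit of detection.

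**Figure D2:**
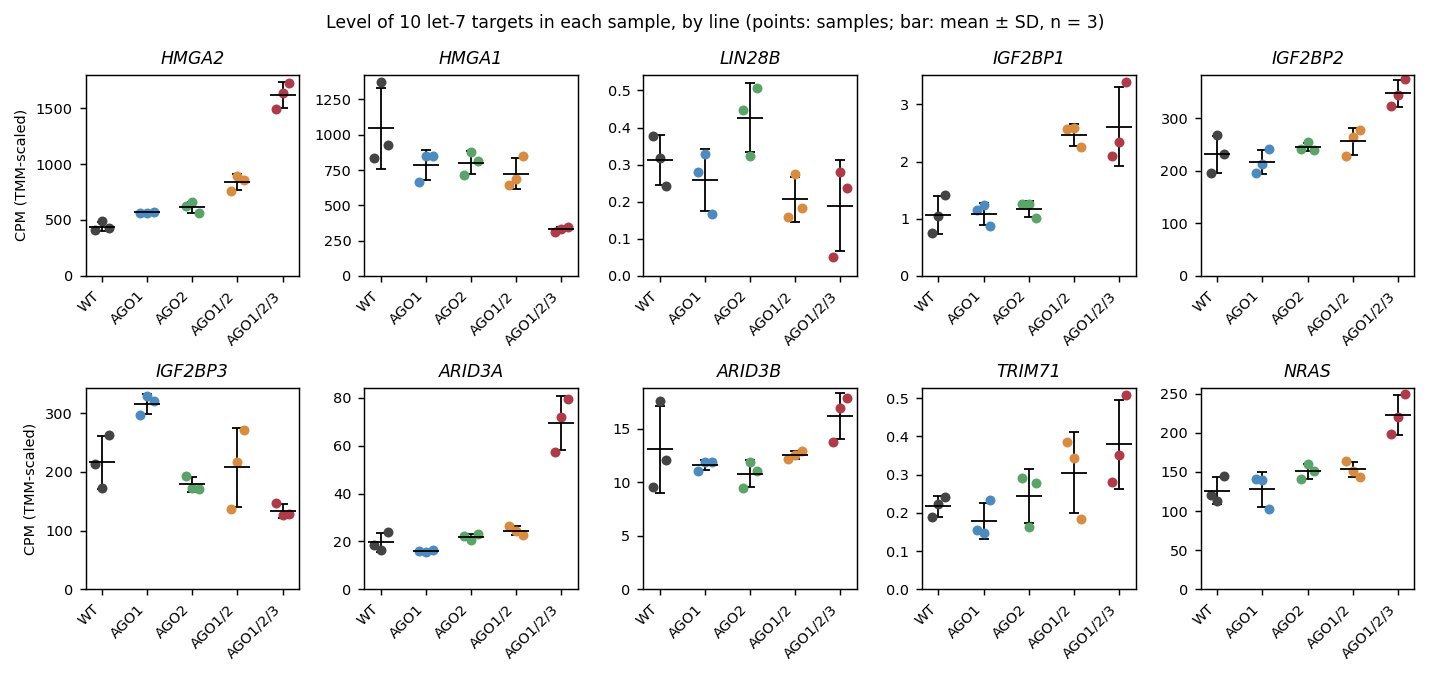
CPM of each of the 10 targets (vertical axes, linear from 0) in each of the 15 samples, with a point for each sample and a bar for the mean and SD of the 3 replicates of a line. The *AGO1/2/3* knockout samples of *HMGA2* lie between 1494 and 1722 CPM, above all other samples, and those of *HMGA1* lie between 315 and 347 CPM, below all other samples.

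HMGA proteins are architectural chromatin factors that bind the minor groove of AT-rich DNA, and *HMGA2* is the best studied let-7 target. *HMGA2* (ENSG00000149948, chr12:65824460-65966291) was at 412, 488 and 425 CPM in wild-type cells, 565, 565 and 572 CPM in *AGO1* knockout cells and 623, 658 and 562 CPM in *AGO2* knockout cells. It was at 763, 894 and 858 CPM in *AGO1/2* knockout cells and at 1494, 1636 and 1722 CPM in *AGO1/2/3* knockout cells. Each knockout line lay above all wild-type samples, the *AGO1* and *AGO2* knockout lines overlapped each other, and the double and the triple knockout each lay above every line with fewer genes lost. *HMGA2* rose in *AGO1* knockout cells by a log2 fold change of 0.36 (standard error, SE, 0.10, adjusted p = 0.0364, edgeR quasi-likelihood test, Benjamini-Hochberg adjustment over all genes tested). By the same test it rose in *AGO2* knockout cells by 0.48 (SE 0.10, adjusted p = 0.00688), in *AGO1/2* knockout cells by 0.92 (SE 0.10, adjusted p = 1.77e-05) and in *AGO1/2/3* knockout cells by 1.87 (SE 0.10, adjusted p = 4.39e-09), a 3.66-fold higher level. The triple knockout exceeded the double knockout by 0.95 (SE 0.10, adjusted p = 8.81e-06). The call in *AGO1* knockout cells was lost without wild-type replicate 1 or 3, without any single *AGO1* knockout replicate and without *AGO1/2/3* knockout replicate 2, at adjusted p from 0.0518 to 0.124 and log2 fold changes from 0.32 to 0.38.

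*HMGA1* (ENSG00000137309, chr6:34236873-34246231) moved the other way. It was at 834, 1373 and 926 CPM in wild-type cells, 665, 847 and 849.9 CPM in *AGO1* knockout cells, 715, 876 and 815 CPM in *AGO2* knockout cells and 641, 683 and 851 CPM in *AGO1/2* knockout cells. In *AGO1/2/3* knockout cells it was at 315, 332 and 347 CPM, below every other sample, while the other lines all overlapped the wild type, whose replicate 2 stood apart. *HMGA1* fell in the triple knockout, its log2 fold change being -1.66 (SE 0.17, adjusted p = 2.34e-06) and stood at 31.7% of the wild-type level. It also fell from the double to the triple knockout, with -1.13 (SE 0.17, adjusted p = 0.000222). The value of -0.53 in *AGO1/2* knockout cells passed the test (SE 0.17, adjusted p = 0.0441) but was -0.29 without wild-type replicate 2 (adjusted p = 0.176). That call was also lost without *AGO1/2* knockout replicate 1 or 2, *AGO1* knockout replicate 2, *AGO2* knockout replicate 3 or *AGO1/2/3* knockout replicate 2 (adjusted p 0.0517 to 0.131). Processed *HMGA1* pseudogenes share sequence with the gene, and 8 of them were listed with 13 to 67 counts in a sample together, at most 0.23% of the *HMGA1* counts. The ratio of *HMGA2* to *HMGA1* per kilobase of canonical transcript was 0.166 to 0.231 in wild-type samples and 0.471 to 0.611 in *AGO1/2* knockout samples. It was 2.21 to 2.31 in *AGO1/2/3* knockout samples, so that the order per kilobase turned in the triple knockout. In CPM not divided by length, *HMGA2* already lay above *HMGA1* in the *AGO1/2* knockout samples (763 against 641, 894 against 683 and 858 against 851 CPM).

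IGF2BP proteins are RNA-binding proteins that stabilize and localize messenger RNAs, and *IGF2BP1* and *IGF2BP3* are typical oncofetal genes. *IGF2BP1* (ENSG00000159217, chr17:48997385-49056145) was at 0.752, 1.05 and 1.42 CPM in wild-type cells, 1.15, 1.24 and 0.867 CPM in *AGO1* knockout cells and 1.25, 1.25 and 1.01 CPM in *AGO2* knockout cells. It was at 2.56, 2.59 and 2.25 CPM in *AGO1/2* knockout cells and 2.09, 2.35 and 3.39 CPM in *AGO1/2/3* knockout cells. All double and triple knockout samples lay above all samples of the other lines, and the double and triple knockout overlapped. *IGF2BP1* rose by a log2 fold change of 1.19 in the double knockout (SE 0.24, adjusted p = 0.0028) and of 1.27 in the triple knockout (SE 0.24, adjusted p = 0.000516). The difference of the triple from the double knockout was 0.07 (SE 0.22, adjusted p = 0.859), and the counts behind all these levels were low, 24 to 100 in a sample.

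*IGF2BP2* (ENSG00000073792, chr3:185643130-185825042) was at 196, 267 and 231 CPM in wild-type cells, 197, 213 and 241 CPM in *AGO1* knockout cells, 242, 255 and 239 CPM in *AGO2* knockout cells, 227, 264 and 277 CPM in *AGO1/2* knockout cells and 324, 344 and 374 CPM in *AGO1/2/3* knockout cells. Only the triple knockout lay above the wild type without overlap. *IGF2BP2* rose there by a log2 fold change of 0.59 (SE 0.12, adjusted p = 0.00112), and by 0.44 over the double knockout (SE 0.12, adjusted p = 0.016). The rise over the double knockout was 0.36 (adjusted p = 0.0745) without *AGO1/2* knockout replicate 1 and 0.35 (adjusted p = 0.0862) without *AGO1/2/3* knockout replicate 3.

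*IGF2BP3* (ENSG00000136231, chr7:23310209-23470491) did not follow its paralogs. It was at 214, 172 and 262 CPM in wild-type cells, 297, 329 and 322 CPM in *AGO1* knockout cells, 194, 172 and 171 CPM in *AGO2* knockout cells, 137, 217 and 271 CPM in *AGO1/2* knockout cells and 148, 127 and 128 CPM in *AGO1/2/3* knockout cells. The *AGO1* knockout samples lay above and the triple knockout samples below all wild-type samples, and the double knockout samples spread over both. *IGF2BP3* fell in the triple knockout, its log2 fold change being -0.69 (SE 0.19, adjusted p = 0.00988). The value of 0.55 in *AGO1* knockout cells did not pass the test (SE 0.19, adjusted p = 0.0976), though it did without wild-type replicate 3 (0.71, adjusted p = 0.0493) or *AGO1/2* knockout replicate 1 (0.55, adjusted p = 0.0251). The fall from the double to the triple knockout, -0.64 (SE 0.19, adjusted p = 0.0279), was -0.43 (adjusted p = 0.136) without *AGO1/2* knockout replicate 3 and was also lost without *AGO1/2* knockout replicate 2 or *AGO1/2/3* knockout replicate 2 or 3.

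ARID3 proteins are transcription factors with an AT-rich interaction domain. *ARID3A* (ENSG00000116017, chr19:925781-975939) was at 18.5, 16.2 and 24.0 CPM in wild-type cells, 16.1, 15.6 and 16.3 CPM in *AGO1* knockout cells, 22.2, 20.4 and 23.0 CPM in *AGO2* knockout cells and 26.3, 24.3 and 22.5 CPM in *AGO1/2* knockout cells. In *AGO1/2/3* knockout cells it was at 57.3, 72.1 and 79.5 CPM, above all other samples, which overlapped the wild type in every line. *ARID3A* rose in the triple knockout by a log2 fold change of 1.83 over wild type (SE 0.14, adjusted p = 1.21e-07), a 3.56-fold higher level, and by 1.51 over the double knockout (SE 0.14, adjusted p = 2.78e-06). Its value of 0.32 in *AGO1/2* knockout cells did not pass the test (SE 0.14, adjusted p = 0.147), and was 0.47 (adjusted p = 0.0339) without wild-type replicate 3.

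*ARID3B* (ENSG00000179361, chr15:74541206-74598131) ranged from 9.45 to 12.9 CPM in the single and double knockout samples. It was at 9.52, 17.6 and 12.1 CPM in wild-type cells and at 13.8, 16.9 and 17.9 CPM in *AGO1/2/3* knockout cells, which overlapped through wild-type replicate 2. Its log2 fold change of 0.31 in *AGO1/2/3* knockout cells did not pass the test (SE 0.17, adjusted p = 0.176). Without wild-type replicate 2 it was 0.56 (adjusted p = 0.00563), so that 1 sample decided the call.

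LIN28B and TRIM71, an RNA-binding ubiquitin ligase, keep cells in an undifferentiated state. *LIN28B* (ENSG00000187772, chr6:104936616-105083332) ranged from 0.051 to 0.507 CPM over the 15 samples, and every line overlapped the wild type. *LIN28B* had log2 fold changes from -0.79 (SE 0.47, adjusted p = 0.201) in the triple knockout to 0.44 (SE 0.39, adjusted p = 0.441) in *AGO2* knockout cells. Differences of this size in *LIN28B* were not detectable at this depth.

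*TRIM71* (ENSG00000206557, chr3:32817997-32897824) was at 0.188, 0.223 and 0.241 CPM in wild-type cells and at 0.281, 0.35 and 0.508 CPM in *AGO1/2/3* knockout cells, with 0.146 to 0.384 CPM in the other lines. The triple knockout samples lay above the wild-type samples. Wild-type and single knockout samples did not exceed 0.291 CPM. *TRIM71* thus passed the filter on low counts only through double and triple knockout samples, where it was high. The log2 fold change of *TRIM71* was 0.77 (SE 0.37, adjusted p = 0.111) and did not pass the test.

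NRAS is a small GTPase that signals to the MAP kinase cascade, and *NRAS* was among the first let-7 targets described in human cells. *NRAS* (ENSG00000213281, chr1:114704469-114716771) was at 120.3, 112 and 145 CPM in wild-type cells, 141, 139.5 and 102 CPM in *AGO1* knockout cells, 141, 161 and 151 CPM in *AGO2* knockout cells, 164, 152 and 144 CPM in *AGO1/2* knockout cells and 199, 220.0 and 250.1 CPM in *AGO1/2/3* knockout cells. The triple knockout was the only line without overlap with the wild type. *NRAS* rose there by a log2 fold change of 0.82 (SE 0.14, adjusted p = 0.000173), and by 0.54 over the double knockout (SE 0.13, adjusted p = 0.00898). The rise over the double knockout was 0.47 (adjusted p = 0.0593) without *AGO1/2* knockout replicate 3 and 0.42 (adjusted p = 0.0736) without *AGO1/2/3* knockout replicate 3.

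Counted over the set, 1 target (*HMGA2*) was higher in *AGO1* knockout cells and 0 were lower by edgeR's quasi-likelihood test, beside 8.68% of all genes tested that were called, 3.17% higher and 5.5% lower. At an unadjusted p under 0.05 edgeR gave 2 higher and 1 lower, and DESeq2 called 1 and 0. In *AGO2* knockout cells edgeR called 1 target (*HMGA2*) higher and 0 lower, beside 19.3% of all genes tested that were called, 8.55% higher and 10.8% lower, with 1 higher and 1 lower at an unadjusted p under 0.05 and 1 and 0 called by DESeq2. In *AGO1/2* knockout cells 2 were higher (*HMGA2* and *IGF2BP1*) and 1 was lower (*HMGA1*), beside 16.7% of all genes tested that were called, 8.37% higher and 8.35% lower. In the triple knockout 5 were higher (*HMGA2*, *ARID3A*, *IGF2BP1*, *NRAS* and *IGF2BP2*), 2 were lower (*HMGA1* and *IGF2BP3*) and 3 did not pass the test, beside 40.1% of all genes tested that were called, 20.3% higher and 19.8% lower. The share of targets that rose in the triple knockout was above that of all genes, and the share that fell was close to it. In the triple knockout 24.9% of protein-coding genes without a let-7 match were called higher. With the 10 targets left out, 35.9% of those with 7mers only, 33.7% with 1 8mer and 46.2% with at least 2 8mers were. Genes with a match also had longer 3′ UTRs, and the part of length was not tested. The median log2 fold change of the 10 targets was -0.13 with *AGO1* lost, 0.14 with *AGO2* lost, 0.21 in the double and 0.68 in the triple knockout, while that of all genes tested lay between -0.02 and 0.01. These comparisons share the wild-type samples.

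Each of the 7 calls in the triple knockout was made in all 22 alternative fits, 7 with other settings and 15 with a sample left out. The log2 fold change over those fits was 1.73 to 1.92 for *HMGA2*, 1.68 to 1.97 for *ARID3A*, 1.0 to 1.5 for *IGF2BP1*, 0.68 to 0.91 for *NRAS* and 0.44 to 0.68 for *IGF2BP2*. It was -1.81 to -1.43 for *HMGA1* and -0.86 to -0.56 for *IGF2BP3*.

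**Figure D3:**
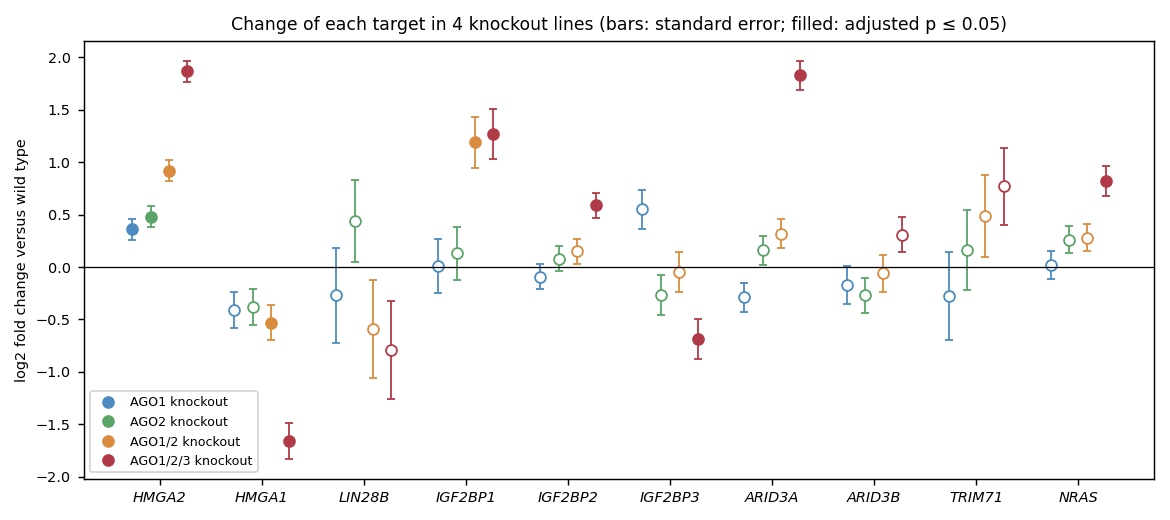
Log2 fold change of each of the 10 targets against wild type (vertical axis) in the 4 knockout lines, with the standard error as a bar and filled points at adjusted p at or under 0.05. *HMGA2* and *ARID3A* rise to 1.87 and 1.83 in *AGO1/2/3* knockout cells, and *HMGA1* falls to -1.66.

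The *AGO1/2/3* and *AGO1/2* knockout lines differ by label in *AGO3*, and *AGO2* RNA was also higher in the triple knockout (log2 fold change 0.67). In *AGO1/2/3* against *AGO1/2* knockout cells, 4 targets were higher (*ARID3A*, *HMGA2*, *NRAS* and *IGF2BP2*) and 2 were lower (*HMGA1* and *IGF2BP3*), beside 22% of all genes tested that were called, 11.9% higher and 10% lower. The median difference of the 10 targets was 0.32 on the log2 scale. *ARID3A*, *NRAS* and *IGF2BP2*, which rose, and *IGF2BP3*, which fell, passed the test against wild type in the triple and not in the double knockout, and for these 4 the difference between the lines was itself past the threshold.

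A linear contrast over the 5 line means by the number of *AGO* genes lost (0, 1, 1, 2 and 3) gave the slope per gene lost. It was positive and past the threshold for 6 targets and negative for 2, beside 43.6% of all genes tested, 22.5% with a positive and 21.1% with a negative slope. The 6 include *TRIM71*, which passed the filter on low counts only through double and triple knockout samples. The slope of *TRIM71* is therefore no support for a rise. *HMGA2* had a slope of 0.62 per gene lost on the log2 scale (SE 0.03, adjusted p = 8.68e-10) and *ARID3A* 0.61 (SE 0.04, adjusted p = 3.02e-08), by edgeR's quasi-likelihood test. *IGF2BP1* had 0.52 (SE 0.07, adjusted p = 3.03e-05), *NRAS* 0.26 (SE 0.04, adjusted p = 9.32e-05) and *IGF2BP2* 0.20 (SE 0.04, adjusted p = 0.000441). *HMGA1* had -0.51 (SE 0.05, adjusted p = 1.9e-06) and *IGF2BP3* -0.24 (SE 0.06, adjusted p = 0.00446). *HMGA2* was the only target whose level separated both single knockouts, the double and the triple knockout from wild type. *ARID3A* had a like slope, but its levels in the single and double knockouts overlapped those of the wild type. The same held for *NRAS*, *IGF2BP2* and *HMGA1*, so that only the triple knockout lay apart for these genes. *IGF2BP1* lay apart from wild type in the double and the triple knockout only. The samples of *IGF2BP3* lay above wild type with only *AGO1* lost, where the test was not passed, and below it in the triple knockout. With only *AGO2* lost its log2 fold change was -0.27, which did not pass either. A slope past the threshold thus does not show a step with each gene lost. The slope of *TRIM71*, 0.30 (SE 0.11, adjusted p = 0.0422), passed only in 3 of the 15 fits with a sample left out, and without *AGO1/2/3* knockout replicate 3 it was 0.21 (adjusted p = 0.229). *LIN28B* (-0.32, adjusted p = 0.0872) and *ARID3B* (0.12, adjusted p = 0.0787) did not pass, although *LIN28B* did without *AGO1/2/3* knockout replicate 2 (-0.45, adjusted p = 0.0498) and *ARID3B* without wild-type replicate 2 (0.19, adjusted p = 0.00204).

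Set beside their matches, *HMGA2* with 7 had a log2 fold change of 1.87 in *AGO1/2/3* knockout cells, *IGF2BP1* with 5 had 1.27, *ARID3A* with 3 had 1.83, *IGF2BP2* with 3 had 0.59 and *NRAS* with 2 had 0.82. *TRIM71* with 8 (0.77, SE 0.37) and *LIN28B* with 5 (-0.79, SE 0.47) had too few counts to be placed, and *ARID3B* with 5 had 0.31 (SE 0.17). *HMGA1* and *IGF2BP3*, the 2 that fell, had 1 match each, a 7mer-m8 in *HMGA1* and an 8mer in *IGF2BP3*. *NRAS*, which rose, had no 8mer. A relation of matches to changes was not tested.

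For comparison, all protein-coding genes tested were grouped by their let-7 matches with the 10 targets left out. The median log2 fold change in the triple knockout was 0.023 for 12054 genes without a match, 0.138 for 1990 genes with 7mers only, 0.147 for 600 genes with 1 8mer and 0.356 for 26 genes with at least 2 8mers. Of these groups 24.9%, 35.9%, 33.7% and 46.2% were called higher. With *AGO1* lost the medians were -0.031, -0.032, -0.045 and 0.064, in the same order, and in the double knockout 0.011, 0.026, 0.038 and 0.178. The medians rose with the matches in the triple knockout, with wide quartiles that overlapped between all groups. The length of the 3′ UTR moved with the groups, from a median of 1037 bases without a match to 4057 bases with at least 2 8mers, and its part was not tested.

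**Figure D4:**
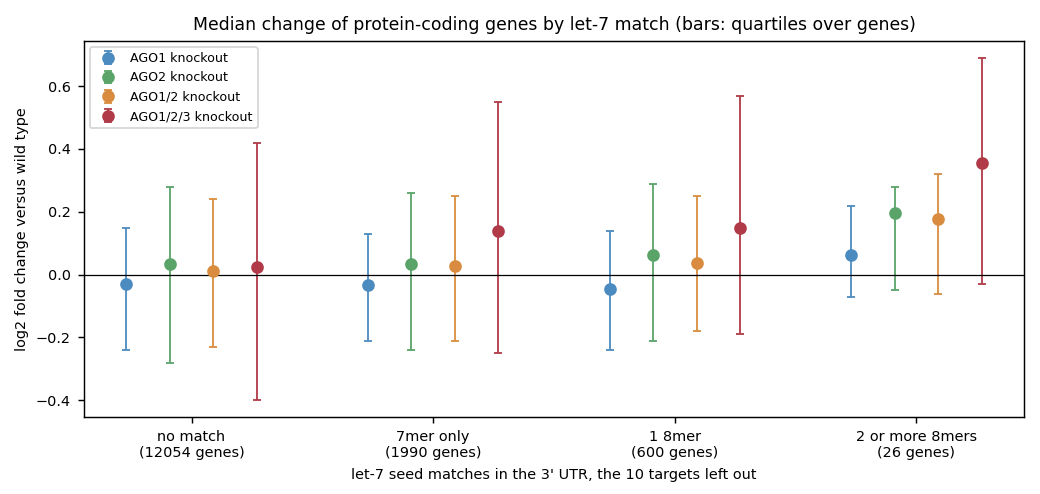
Median log2 fold change against wild type (vertical axis, bars from the lower to the upper quartile over genes) of protein-coding genes grouped by let-7 seed matches in the 3′ UTR, for the 4 knockout lines. In the triple knockout the median goes from 0.023 without a match to 0.356 with at least 2 8mers, and the quartiles of all groups overlap.

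The neighbourhood of each target on its chromosome was examined since edited lines can differ in the copy number of a region. Over genes within 5 Mb whose mean was 1 CPM or more, the median log2 fold change in *AGO1/2/3* knockout cells was 0.20 around *HMGA2* (54 genes), -0.04 around *ARID3A* (153 genes), 0.08 around *IGF2BP1* (139 genes), 0.17 around *NRAS* (71 genes) and 0.05 around *IGF2BP2* (61 genes). It was -0.14 around *HMGA1* (175 genes) and 0.22 around *IGF2BP3* (48 genes). Of the neighbours, 1 of 54 exceeded *HMGA2*, 1 of 153 *ARID3A*, 8 of 139 *IGF2BP1*, 10 of 71 *NRAS* and 12 of 61 *IGF2BP2*, while 168 of 175 exceeded *HMGA1* and 45 of 48 exceeded *IGF2BP3*. The neighbours of *TRIM71* had the highest median, 0.40 over 37 genes.

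Among the genes whose levels followed *HMGA2* most closely over the 15 samples, by Pearson correlation of log2 CPM among 16082 genes whose mean was 1 CPM or more, were *CHM* (r = 0.985) and *NAV2* (r = 0.977). They are given as a description, since the 15 samples share 5 lines and the triple knockout stands apart from the rest in both. *CHM* had a log2 fold change of 0.76 and *NAV2* of 3.17 in *AGO1/2/3* knockout cells.

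Among 14 genes that make, degrade or use let-7, 5 rose and 2 fell in *AGO1/2/3* knockout cells by edgeR's quasi-likelihood test, beside 20.3% of all genes tested that were higher and 19.8% lower, and the median over the 14 was -0.01. *DICER1*, which cuts microRNA precursors and is itself a known let-7 target, went from 102 ± 5.58 CPM in wild-type cells to 281 ± 14.5 CPM (SD, n = 3; log2 fold change 1.47, SE 0.11, adjusted p = 5.9e-08). *TNRC6A* rose by 1.28 (SE 0.17, adjusted p = 2.04e-05), *TNRC6B* by 0.69 (SE 0.11, adjusted p = 0.000138) and *TNRC6C* by 1.33 (SE 0.10, adjusted p = 8.23e-08), the 3 GW182 genes. *DGCR8*, the partner of DROSHA in the Microprocessor, rose by 0.58 (SE 0.16, adjusted p = 0.0081). *TUT4*, which adds uridines to let-7 precursors bound by LIN28, fell with -0.39 (SE 0.09, adjusted p = 0.00272). *TRIM25*, a cofactor of that step, fell with -0.91 (SE 0.26, adjusted p = 0.0111), from 269 ± 155 CPM in wild-type cells, and with only the 6 samples of both lines it had -0.97 (adjusted p = 0.0509). *LIN28A*, *TUT7*, *DIS3L2*, *DROSHA*, *XPO5*, *TARBP2* and *KHSRP* did not pass the test, although *TUT7* (-0.26, adjusted p = 0.0351) and *DROSHA* (-0.27, adjusted p = 0.0193) did when scaled by total counts only.

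let-7 itself was not measured in the RNAseq data. Of 7 host transcripts of let-7 genes that were tested, 0 were higher and 1 was lower in the triple knockout, namely *MIR100HG* (log2 fold change -0.52, SE 0.15, adjusted p = 0.0127, but 0.0519 without *AGO1/2/3* knockout replicate 1). *MIRLET7BHG* fell with *AGO1* lost (-0.65, SE 0.11, adjusted p = 0.00194) and with *AGO2* lost (-0.81, SE 0.11, adjusted p = 0.000428) and had a value of 0.21 in *AGO1/2/3* knockout cells (SE 0.11, adjusted p = 0.147). By edgeR's quasi-likelihood test *SPACA6* also fell with *AGO1* lost (-0.80, SE 0.21, adjusted p = 0.0246). With *AGO2* lost *MIRLET7IHG* fell (-0.97, SE 0.23, adjusted p = 0.0106) and *WDR82* rose (0.33, SE 0.11, adjusted p = 0.0463). Among the 7, edgeR thus called 2 lower with *AGO1* lost, beside 5.5% of all genes tested. With *AGO2* lost it called 1 higher and 2 lower, beside 8.55% and 10.8%. In the triple knockout 0 of the 7 were higher at an unadjusted edgeR p under 0.05, and DESeq2 called 0. Of all genes tested 20.3% were higher and 19.8% lower in that comparison. Host transcript levels do not measure mature let-7.

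Of 30 further known let-7 targets, 26 were tested, and 23 of these had a seed match, 13 of them an 8mer. In the triple knockout 14 were higher, 3 lower and 9 did not pass the test, beside 20.3% of all genes tested that were higher and 19.8% lower. Their median log2 fold change was 0.78, and that of the classic 10 was 0.68. With *AGO1* lost edgeR called 0 higher (1 at an unadjusted p under 0.05, and 0 called by DESeq2) and 1 lower, beside 3.17% and 5.5% of all genes tested. With *AGO2* lost 9 were higher and 3 lower, beside 8.55% and 10.8%, and in the double knockout 7 and 3, beside 8.37% and 8.35%. *IGDCC3*, a member of the immunoglobulin superfamily with 3 8mers, rose from 0.546 ± 0.182 CPM to 4.63 ± 0.34 CPM (SD, n = 3; log2 fold change 3.07, SE 0.25, adjusted p = 1.61e-07). *THBS1*, a secreted matrix glycoprotein, rose from 20.7 ± 9.12 CPM to 137 ± 52.1 CPM (log2 fold change 2.73, SE 0.38, adjusted p = 3.84e-05). *CDK6*, a cell cycle kinase, rose from 161 ± 33.1 CPM to 899.9 ± 69.1 CPM (2.48, SE 0.18, adjusted p = 5.9e-08), and *PBX3*, a homeobox factor, from 8.26 ± 1.61 CPM to 42.3 ± 2.8 CPM (2.36, SE 0.14, adjusted p = 1.15e-08). Unlike *IGDCC3*, these genes had no 8mer, with 1 seed match each in *THBS1* and *CDK6* and 2 in *PBX3*.

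*MYC*, *E2F5* and *LRIG3* were the further targets that fell. The transcription factor *MYC* fell from 279.7 ± 47.1 CPM to 58.5 ± 7.5 CPM in *AGO1/2/3* knockout cells (log2 fold change -2.26, SE 0.14, adjusted p = 1.64e-08). *E2F5*, an E2F transcription factor, had a log2 fold change of -1.19 (SE 0.15, adjusted p = 1.07e-05). Both lie on chromosome 8, where the median of the genes within 5 Mb was -0.58 around *MYC* (41 genes) and -0.53 around *E2F5* (28 genes), and the part of this regional shift was not tested. *LRIG3*, a membrane protein, had -0.54 (SE 0.18, adjusted p = 0.0289), a call lost without wild-type replicate 1 or 3 or *AGO1/2/3* knockout replicate 1 or 2 (adjusted p up to 0.102), and was lower still in *AGO1/2* knockout cells (-1.32, SE 0.19, adjusted p = 0.000239).

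**Figure D5:**
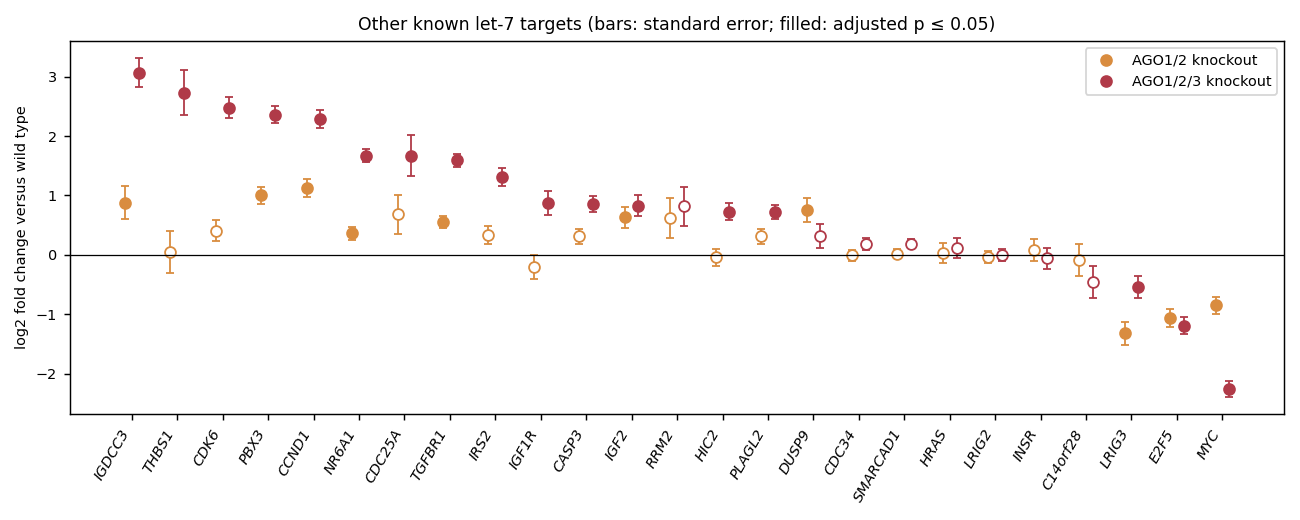
Log2 fold change against wild type (vertical axis) of further let-7 targets, in the double (*AGO1/2*) and the triple (*AGO1/2/3*) knockout, with the standard error as a bar and filled points at adjusted p at or under 0.05. In the triple knockout the values run from 3.07 for *IGDCC3* to -2.26 for *MYC*, with 14 genes higher and 3 lower.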

How the data were processed

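RNA from wild-type HCT116 cells and 4 *AGO* knockout lines was sequenced by the authors with 3 biological replicates per line. Per the study's methods and notes, the authors aligned reads to hg38 with STAR and quantified them with Salmon, and the authors deposited an estimated count for each gene, without normalization for depth. The notes give STAR 2.5.3a and Salmon 0.11.0, whereas the paper's methods name other versions of both. The annotation release was not checked here. The 8 eCLIP samples were not analysed here.

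Counts were rounded to whole numbers, filtered with filterByExpr and scaled by TMM. All 15 samples entered 1 fit in edgeR 4.0.16 (R 4.3.3), with line as the only factor (5 levels). Comparisons used its quasi-likelihood test with Benjamini-Hochberg adjustment over 22842 genes, and adjusted p at or under 0.05 was called. The study used DESeq2; DESeq2 1.42.0 was run as an alternative. The trend was a linear contrast of line means. The common biological coefficient of variation was 0.152. Total counts were 27709971 to 45271146 per sample, and at the lowest depth 3 counts are 0.108 CPM. No pair of the 105 pairs of files held identical values.

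Positions, symbols and 3′ UTRs come from GENCODE v44 (GRCh38), which holds 57167 of the 57875 genes, and microRNAs from RefSeq (GRCh38.p14). Seed matches and summaries were computed with Python 3.11.15, numpy 2.4.6 and pandas 2.3.3. The fit was tested on simulated data. The genes, lists and tests were chosen with earlier results of these data known. The genes named are the 10 targets, the *AGO* genes, the measured genes of the let-7 pathway and host lists, up to 4 further targets with the largest rise and 4 with the largest fall among those called in *AGO1/2/3* knockout cells, and the 3 genes most like *HMGA2*. Some genes that these rules name are not reported here. Alternatives were DESeq2's size factors, total counts only, DESeq2's Wald test, a fit without the filter, a minimum of 10 counts in all samples, fits of just the 6 samples compared, a block for replicate number, a regression on the number of genes lost and each sample left out in turn.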

Additional observations from a re-analysis of the deposited data

How the results depend on the processing

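Each genotype is 1 line with 3 replicates, and *LIN28B* and *TRIM71* had at most 20 and 15 counts in a sample, which limits what could be detected. They dropped out when at least 10 counts were required in every sample, which left 8 targets. No call changed sign, and the counts in *AGO1/2/3* knockout cells stayed at 5 higher and 2 lower under the 7 settings tried. With total counts only, 0 targets were higher in *AGO1* knockout cells in place of 1, and 1 was lower in *AGO2* knockout cells in place of 0. That scaling moved the median of all genes in *AGO1/2/3* knockout cells from -0.009 to -0.15, turned 4644 higher and 4522 lower genes into 3459 and 5962, and gave the targets a median of 0.54. With only the 6 samples of the lines compared, 0 targets were higher in *AGO1* knockout cells and 0 lower in *AGO1/2* knockout cells in place of 1. A regression on the number of genes lost in place of line means left 1 negative slope past the threshold in place of 2, since *IGF2BP3* kept its slope (-0.25) but not its call (adjusted p = 0.0811). The *TRIM71* slope was lost with total counts only, DESeq2, no filter, the block and the regression, at adjusted p from 0.0509 to 0.181. The replicate numbers did not pair the samples: deviations of samples with the same number had a mean correlation of -0.0114 over 30 pairs. With the replicate number as a block, 5 targets were higher in the triple knockout and 2 lower, 6 positive and 2 negative slopes were past the threshold, and *ARID3B* took the place of *TRIM71* (0.13, adjusted p = 0.0322). With each sample left out in turn, the number of targets called higher was 0 to 2 in *AGO1*, 1 in *AGO2*, 2 to 3 in *AGO1/2* and 5 to 6 in *AGO1/2/3* knockout cells, 2 to 5 between the triple and double knockout and 5 to 6 for the slope. The number called lower was 0, 0 to 1, 0 to 1, 2, 1 to 2 and 2 to 3, in the same order. *HMGA1* was called lower in *AGO2* knockout cells without wild-type replicate 1 (-0.54, adjusted p = 0.0481), and *ARID3B* was called higher in the triple than in the double knockout without wild-type replicate 2 (0.36, adjusted p = 0.0474). The cause of these changes was not tested.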
